A study of Homo sapiens with 4 samples.

Results

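Ribosome footprints on 10 genes of the canonical Wnt and beta-catenin pathway were examined in colorectal cancer cells with and without METTL14 overexpression. The genes were LRP5, LRP6, RNF43, APC, AXIN1, AXIN2, CTNNB1, TCF7L2, ASCL2 and MYC, each taken as the row of the deposited files that carries its symbol, and all 10 were found among 20323 rows. APC and RNF43 had a second row of the same symbol with few or no counts (at most 12.94 for APC and 0 for RNF43), and the row with the larger sum was used. All 10 passed the filter on low counts that left 12560 genes for testing. The tables hold no gene lengths, so levels of different genes are not set against each other.

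HCT-8 is a line of human colorectal adenocarcinoma, used here in a derivative that resists the drug 5-fluorouracil (5-FU). The OE group (2 libraries) was transfected with METTL14 overexpression plasmids and the NC group (2 libraries) with negative control plasmids. All cells were of the resistant line and received cycloheximide at 100 ug/mL, a drug that stalls ribosomes on messages. The series describes the experiment as done independently for each replicate. The labels give no efficiency of transfection, and in such bulk lysates a change in few cells and a smaller change in all cells cannot be told apart. METTL14 binds RNA for METTL3, its catalytic partner, in the enzyme that places N6-methyladenosine on messages. The comparison asks which messages gained or lost ribosomes when it was overexpressed. Total RNA was not analysed here, so message abundance and ribosome occupancy cannot be separated in a footprint count.

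In this pathway a Wnt ligand binds a Frizzled receptor and the co-receptor LRP5 or LRP6. Without ligand, the scaffold proteins APC and AXIN1 or AXIN2 hold beta-catenin (CTNNB1) for phosphorylation and destruction. With ligand, beta-catenin accumulates and joins TCF7L2 on DNA to switch on targets such as AXIN2, RNF43, ASCL2 and MYC. AXIN2 and RNF43 feed back on the pathway as inhibitors. In the intestinal epithelium it maintains the stem cells of the crypt, and mutations that activate it are a common early step in colorectal cancer.

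The libraries held 7742274 and 24392875 counts in OE replicates 1 and 2, and 21846389 and 18707758 in NC replicates 1 and 2. Footprint counts are given as CPM, counts scaled to the library total after TMM adjustment. That adjustment aims to set the libraries to a common level for most genes. In OE replicate 1 the log2 difference from NC still depended on level. Its median was 1.16 over the 1257 tested genes lowest in NC and -1.08 over the 1256 highest. In OE replicate 2 these medians were -0.09 and -0.08. METTL14 itself had 448 and 91.2 CPM in OE, against 44.5 and 47.6 CPM in NC, so its gain differed between the OE libraries. OE replicate 1 stood apart: across 12560 genes the log2 CPM of the OE libraries correlated with r = 0.863 and those of the NC libraries with r = 0.983, and genes are not independent replicates. Of 12 colorectal epithelial markers, 11 were tested and CEACAM5 had under 3 counts in every library. Their summed CPM was 6286 in the first OE library and 24789 in the second, against 21975 and 21344 CPM in NC. KRT8, KRT18 and KRT19 carried most of it, with KRT8 at 2595 and 10639 CPM in OE, against 9116 and 8886 CPM in NC. EPCAM, CDH1, KRT19, VIL1 and TFF3 lay below both NC libraries in both OE libraries, as did 20.4% of all genes. Only CDX2 lay above, as did 19.9% of all genes, with 27.2 and 44.3 CPM in OE, against 27.1 and 21.9 CPM in NC. The remaining tested markers overlapped between the groups. Leukocyte markers summed to 2.67 and 2.99 CPM in OE, against 11.6 and 9.15 CPM in NC, nearly all of it CD14. Fibroblast markers summed to 6.68 and 2.99 CPM in OE, against 9.84 and 10.3 CPM in NC, and endothelial markers to at most 0.410 CPM in any library. CD3E, MS4A1, CDH5 and KDR were at 0 in all 4. The part of these differences in the results was not tested. Results are given for each OE library for the members, while for some further genes only the fitted change is given.

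No member passed the test of OE against NC, but 4 of the 10 lay on the same side of both NC libraries in both OE libraries. AXIN2 and RNF43 lay above, and CTNNB1 and TCF7L2 lay below. Over all genes tested, 19.9% lay above both NC libraries in both OE libraries and 20.4% below, so 2 of 10 on each side is near the background. In edgeR's quasi-likelihood fit, adjusted over all genes by Benjamini-Hochberg, 0 members and 0 genes (0%) passed at 0.05. At an unadjusted p of 0.05, 0 members and 691 genes (5.50%) were below it, and the DESeq2 Wald test called 25 genes (0.199%) and 0 members. The median fitted log2 change of the members was 0.06, beside 0.09 over all genes.

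**Figure D1:**
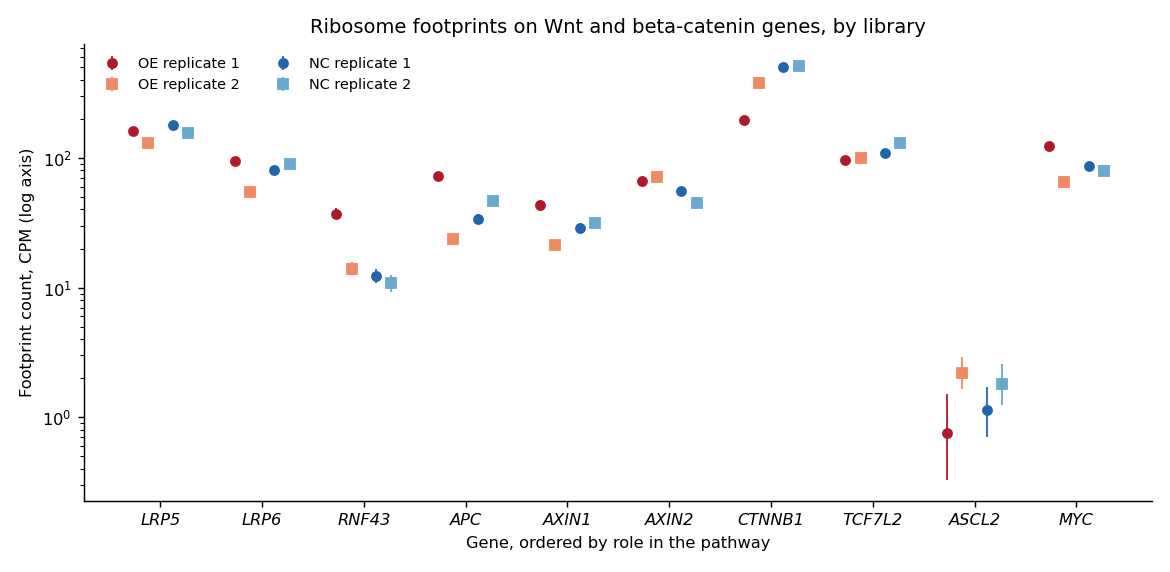
Footprint counts in CPM (log axis) of the 10 genes in each of the 4 libraries, with OE left of NC. Bars are 95% intervals of the exact Poisson kind and cover only the error of counting; the OE points lie apart from both NC points on the same side for RNF43, AXIN2, CTNNB1 and TCF7L2.

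Beta-catenin, encoded by CTNNB1 (ENSG00000168036), is both the transcriptional effector of the pathway and a component of cell junctions. It had 194 and 376 CPM in OE, against 501 and 511 CPM in NC. Both OE libraries were lower, and they differed more from each other than the NC libraries did. The means were 285 ± 129 CPM in OE and 506 ± 6.72 CPM in NC (SD, n = 2 each). The fitted log2 change was -0.83 (SE 0.51), a ratio of 0.564 (edgeR quasi-likelihood adjusted p = 0.734). CTNNB1 stood at percentile 97.2 of the tested genes by NC level, and the 1256 most abundant genes by that level had a median log2 difference from NC of -1.08 in the first OE library and -0.08 in the second. With a scaling that depends on the level of a gene (cyclic loess), the log2 difference of CTNNB1 from the NC mean was -0.50 and -0.46 in OE replicates 1 and 2, with limma's adjusted p of 0.862. The fit gave -0.42 without OE replicate 1 (adjusted p = 0.0176) and -1.42 without OE replicate 2 (adjusted p = 1.28e-09), fits that called 34.1% and 60.9% of all genes. Each of these edgeR fits assumes that the lone OE library varies like the NC libraries.

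RNF43 (ENSG00000108375) is a ubiquitin ligase of the cell surface that removes Frizzled receptors, and a target of the pathway it restrains. It had 37.2 and 14.0 CPM in OE, against 12.3 and 10.8 CPM in NC. OE replicate 1 was far above the others, while OE replicate 2 was only slightly above NC replicate 1. The 95% counting intervals of these, 12.5 to 15.7 CPM and 10.8 to 14.0 CPM, overlapped. The fitted log2 change of 1.14 (SE 0.53), a ratio of 2.21, was the highest among the members over all 4 libraries (edgeR quasi-likelihood adjusted p = 0.734). Without OE replicate 1 it was 0.28 (adjusted p = 0.368), and without OE replicate 2 it was 1.65 (adjusted p = 8.52e-09).

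CTNNB1 and RNF43 had the lowest and the highest fitted change of the members over all 4 libraries (without OE replicate 1 these were APC at -0.76 and ASCL2 at 0.59), and the 250 bases before their annotated starts are shown to compare the sequence around them. Sequences are RefSeq's on GRCh38.p14, a build other than the one in the submitters' processing notes, and are printed on the strand of the gene. Capitals mark GGGCGG or its complement CCGCCC (the GC box) and CCAAT or its complement ATTGG, searched on both strands. The window of CTNNB1 lies at chr3:41199255-41199504 on the plus strand and that of RNF43 at chr17:58417535-58417784 on the minus strand, the first of 2 windows of that gene.
CTNNB1: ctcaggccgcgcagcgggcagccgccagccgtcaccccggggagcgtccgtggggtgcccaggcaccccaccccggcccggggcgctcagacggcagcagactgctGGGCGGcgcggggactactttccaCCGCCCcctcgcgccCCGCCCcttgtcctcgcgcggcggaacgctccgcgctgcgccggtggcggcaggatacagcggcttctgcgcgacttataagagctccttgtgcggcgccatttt
RNF43: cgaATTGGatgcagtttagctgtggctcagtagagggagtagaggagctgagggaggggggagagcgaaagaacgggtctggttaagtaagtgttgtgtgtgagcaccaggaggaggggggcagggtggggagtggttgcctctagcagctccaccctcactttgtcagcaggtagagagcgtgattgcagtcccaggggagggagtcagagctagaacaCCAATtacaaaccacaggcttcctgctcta
The CTNNB1 window was 74.4% G or C and held 3 GC boxes and no CCAAT. The RNF43 window was 56.0% G or C and held 2 CCAAT matches and no GC box. Among 35116 windows of this length, 42.6% held GGGCGG and 32% held CCAAT, and the median G or C content was 58%. The TCF core letters CTTTGAT and CTTTGAA, searched on both strands, were in none of the 10 windows searched, and in 2.26% and 3.8% of all windows. Those 10 windows were of 6 members (APC, AXIN1, CTNNB1, LRP5, RNF43 and TCF7L2). AXIN2, LRP6, ASCL2 and MYC were not among them. CACGTG, the letters of the E-box, was in 1 of the 10, the second APC window, and in 6.34% of all. The E-box and TCF letters are not in capitals, and footprint counts do not measure transcription.

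The co-receptors LRP5 and LRP6 did not separate between the groups. LRP5 (ENSG00000162337) had 160 and 129 CPM in OE, against 180 and 156 CPM in NC. LRP6 (ENSG00000070018) had 94.4 and 54.7 CPM in OE, against 80.7 and 88.9 CPM in NC. For LRP5, OE replicate 2 lay below both NC libraries and OE replicate 1 between them, while for LRP6 the OE libraries lay on opposite sides. The fitted log2 changes were -0.22 (SE 0.35) and -0.19 (SE 0.39), with adjusted p of 0.870 and 0.898 (edgeR, quasi-likelihood). Against a median of 0.40 over all genes, library totals as the only scaling gave 0.15 for LRP5 and 0.22 for LRP6.

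Of the scaffolds of the destruction complex, AXIN2 was alike in the OE libraries and APC and AXIN1 were not. AXIN2 (ENSG00000168646), the scaffold induced by the pathway itself, had 66.2 and 71.1 CPM in OE, against 55.2 and 44.7 CPM in NC. The means were 68.6 ± 3.48 CPM in OE and 49.97 ± 7.41 CPM in NC (SD, n = 2 each). Both OE libraries were above both NC libraries, and the NC libraries differed by more than the OE libraries. The fitted log2 change was 0.46 (SE 0.31), a ratio of 1.37 (edgeR quasi-likelihood adjusted p = 0.734). Without OE replicate 1 it was 0.51 (adjusted p = 0.0154) and without OE replicate 2 it was 0.36 (adjusted p = 0.0615). Its positive direction was also found with library totals, cyclic loess and RLE scaling, at 0.78, 0.55 and 0.46. The medians over all genes with these were 0.40, -0.001 and 0.10.

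APC (ENSG00000134982), the tumour suppressor scaffold often lost in colorectal cancer, had 72.5 and 23.6 CPM in OE, against 33.9 and 46.4 CPM in NC. Its OE libraries lay on opposite sides of both NC libraries. AXIN1 (ENSG00000103126), the constitutive scaffold, had 43.0 and 21.4 CPM in OE, against 29.0 and 31.5 CPM in NC, with the same split. The fitted log2 changes were 0.26 (SE 0.59) for APC and 0.09 (SE 0.42) for AXIN1, with adjusted p of 0.908 and 0.959 (edgeR, quasi-likelihood). Without OE replicate 1 they were -0.76 (adjusted p = 0.000842) and -0.50 (adjusted p = 0.0256). Without OE replicate 2 they were 0.81 (adjusted p = 0.000156) and 0.47 (adjusted p = 0.0222), so the direction was set by the OE library kept.

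TCF7L2 (ENSG00000148737), the main DNA-binding partner of beta-catenin in the gut, had 96.1 and 98.9 CPM in OE, against 109 and 130 CPM in NC. The OE libraries were close together and below both NC libraries, and OE replicate 2 was nearer to NC replicate 1 than the NC libraries were to each other. Its log2 change in the fit was -0.30 (SE 0.32; edgeR quasi-likelihood adjusted p = 0.811). With cyclic loess it was -0.05, with OE replicate 1 at 0.17 and OE replicate 2 at -0.26 from the NC mean. With library totals it was 0.03, below the median of 0.40 over all genes with that scaling. The separation of the groups was kept with neither, and the sign was not kept with totals.

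Neither of the transcription factors that beta-catenin induces separated between the groups. MYC (ENSG00000136997), which drives growth and proliferation, had 123 and 65.3 CPM in OE, against 85.9 and 78.6 CPM in NC, with the OE libraries on opposite sides of both NC libraries. Its fitted log2 change was 0.20 (SE 0.42; edgeR quasi-likelihood adjusted p = 0.901). Leaving out OE replicate 1 gave -0.33 (adjusted p = 0.123), and leaving out OE replicate 2 gave 0.54 (adjusted p = 0.00279). ASCL2 (ENSG00000183734), a transcription factor of intestinal stem cells, was scarce, with 8 and 49 counts in OE, against 22 and 31 counts in NC. These are 0.761 and 2.22 CPM in OE, and 1.13 and 1.82 CPM in NC. The 95% counting intervals of OE replicate 1 (0.329 to 1.5 CPM) overlapped those of NC replicates 1 (0.710 to 1.72 CPM) and 2 (1.23 to 2.58 CPM). The OE libraries differed from each other beyond counting error, since the interval of OE replicate 2 was 1.64 to 2.93 CPM. The fitted log2 change was 0.04 (SE 0.80).

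The members differed more between OE replicates than between NC replicates, as did genes in general. The median absolute log2 difference between replicates was 0.93 over the members in OE and 0.20 in NC, beside 0.83 and 0.17 over all genes. In OE replicate 1, 6 of 10 members lay above both NC libraries and 3 below, beside 46.7% and 45.5% of all genes. In OE replicate 2, 3 lay above (AXIN2, RNF43 and ASCL2) and 7 below, beside 42.8% and 42.5% of all genes. The median difference of the members from the NC mean was 0.28 for OE replicate 1 and -0.35 for OE replicate 2, beside 0.02 and 0.00 over all genes.

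**Figure D2:**
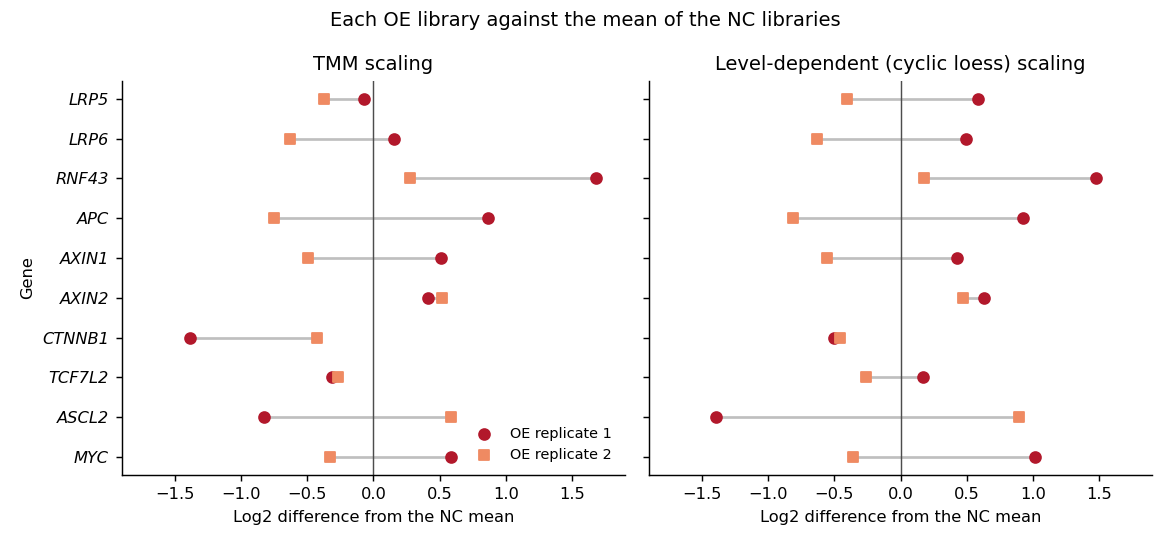
Log2 difference of each OE library from the mean of the NC libraries for the 10 genes, with TMM scaling on the left and cyclic loess scaling on the right. Grey lines join the OE libraries; AXIN2 and CTNNB1 lie close together in the right panel, while APC, AXIN1, LRP6, MYC and ASCL2 lie on opposite sides of 0 in both panels.

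Ratios between members within a library are the same under any scaling by 1 factor per library, but not under cyclic loess, which depends on level. Of 5 pairs, AXIN2 over CTNNB1 and MYC over CTNNB1 lay above both NC libraries in both OE libraries. For AXIN2 over CTNNB1 this follows from the values above and is no further result, since AXIN2 lay above and CTNNB1 below both NC libraries. The share of separated pairs over all genes was not computed, so the number of such pairs has no background here. The ratio of AXIN2 to CTNNB1 counts, a target against its activator, was 0.341 and 0.189 in OE, against 0.110 and 0.0876 in NC. That is a difference of 1.37 on the log2 scale, or 2.58-fold, with a two-sided exact permutation p of 0.333, the smallest that 2 libraries against 2 allow (Benjamini-Hochberg adjusted over 5 pairs, 0.833). The ratio of MYC to CTNNB1 was 0.634 and 0.174 in OE, against 0.171 and 0.154 in NC, so that OE replicate 2 hardly differed from NC replicate 1. The log2 difference was 1.03, with the same p-values, and 0.10 without OE replicate 1. For AXIN2 over CTNNB1 it stayed at 0.94 when OE replicate 1 was left out and at 1.79 when OE replicate 2 was. With cyclic loess, tried after the data were seen, the log2 differences were 1.03 for AXIN2 over CTNNB1 and 0.81 for MYC over CTNNB1, and OE replicate 1 differed from the NC mean by 1.13 and 1.52, against 1.79 and 1.97 in the counts. Both pairs still lay above both NC libraries in both OE libraries. These pairs share CTNNB1 and are not independent.

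The other 3 pairs overlapped between the groups in the counts, and with cyclic loess AXIN2 over AXIN1 lay above both NC libraries in both OE libraries (log2 difference 0.61). AXIN2 over AXIN1 was 1.54 and 3.32 in OE, against 1.904 and 1.42 in NC. LRP6 over LRP5 was 0.591 and 0.423 in OE, against 0.449 and 0.571 in NC. APC over CTNNB1 was 0.373 and 0.0627 in OE, against 0.0677 and 0.0908 in NC. OE replicate 1 alone was high for APC over CTNNB1, and OE replicate 2 alone for AXIN2 over AXIN1. Their exact permutation p-values were 1, 1 and 0.667 for APC over CTNNB1, LRP6 over LRP5 and AXIN2 over AXIN1.

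**Figure D3:**
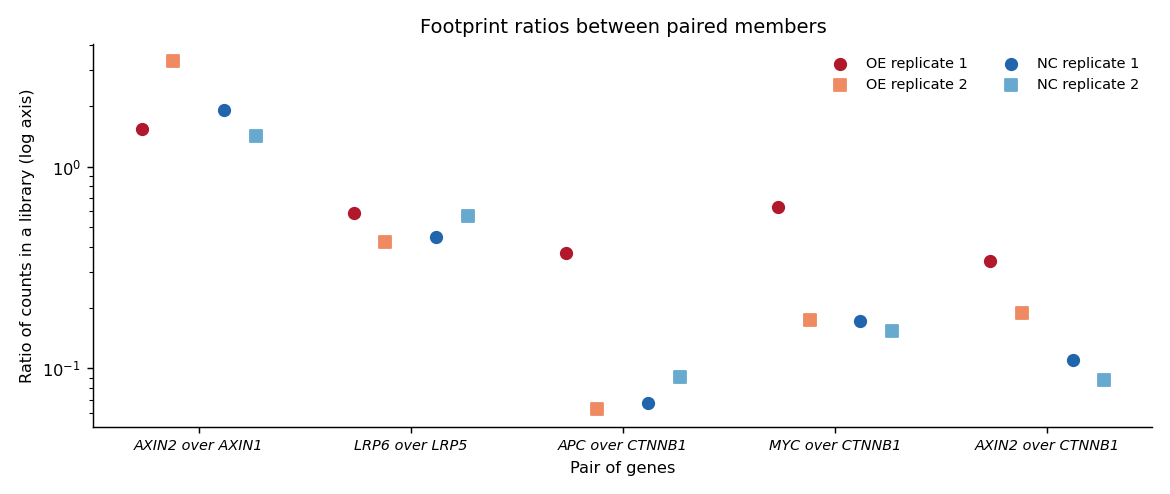
Ratio of footprint counts between paired members in each of the 4 libraries (log axis), with OE left of NC. For AXIN2 over CTNNB1 both OE points, 0.341 and 0.189, lie above both NC points.

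Genes with profiles over the 4 libraries most like those of 4 members were found by the Euclidean distance between log2 CPM, each gene centred on its mean, among 8978 other genes with a mean of at least 10 CPM. CTNNB1 was nearest to SLC39A14, at a distance of 0.04. SLC39A14, a metal ion transporter, had 141 and 279 CPM in OE, against 368 and 366 CPM in NC, so that, as for CTNNB1, OE replicate 1 was lowest and OE replicate 2 next. AXIN2 was nearest to PCBP4 and KLF4, both at 0.07, MYC to CASC3 and INPP4A, at 0.02 and 0.04, and APC to RREB1 and TANC2, at 0.04 and 0.05. Profiles within 0.25 numbered 225 for CTNNB1, 208 for MYC, 149 for AXIN2 and 59 for APC, so such likeness over 4 libraries is common.

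Beyond the members, 160 listed pathway genes were found in the files, of which 124 were tested and 0 passed edgeR's test in either direction. At an unadjusted p of 0.05, 8 were below it, beside 5.50% of all genes, and the DESeq2 Wald test called 0. Both OE libraries lay above both NC libraries for 25 of the 124 and below for 32, near the 19.9% and 20.4% of all genes. The median fitted log2 change was 0.14. The lists of receptors, ligands, extracellular regulators and junction partners had medians below 0, and the other lists had medians above 0, as described next. In OE replicate 2 the medians of transducers, nuclear partners and target genes were below 0.

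The list of Wnt receptors and co-receptors, without the members LRP5 and LRP6, had the most genes on the low side. It also held the ubiquitin ligase ZNRF3, which lay below. Of 14 tested, 10 lay below both NC libraries in both OE libraries and 0 above, beside the 20.4% and 19.9% of all genes. The Frizzled receptor FZD7 had 22.03 and 33.8 CPM in OE, against 75.3 and 58.5 CPM in NC, a fitted log2 change of -1.26 (SE 0.37). FZD2 had 9.80 and 11.5 CPM in OE, against 24.6 and 20.8 CPM in NC, a change of -1.09 (SE 0.31). Both genes were lower in each OE library, and FZD6 and FZD5 had changes of -0.69 and -0.77. The adjusted p was 0.734 for all 4 (edgeR, quasi-likelihood). The median of the list was -0.69, which was -0.38 with library totals and -0.72 with cyclic loess, beside medians over all genes of 0.40 and 0.00. OE replicate 2 lay below both NC libraries for 14 of 14, beside 42.5% of all genes, and OE replicate 1 for 10 of 14, beside 45.5%. With library totals 7 of 14 lay below in both OE libraries, beside 11.8% of all genes, and with cyclic loess 11, beside 20.3%.

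Ligands and their secretion machinery, extracellular regulators and junction partners also had medians below 0. Of the ligand list 10 of 21 genes were tested, 4 lay below and 0 above (all genes 20.4% and 19.9%), with a median of -0.56. WLS, the carrier that brings Wnt proteins to the cell surface, had 84.7 and 131 CPM in OE, against 199 and 210 CPM in NC. The ligand WNT5B had 10.1 and 10.3 CPM in OE, against 21.1 and 17.6 CPM in NC. For both genes the groups were well separated, with fitted log2 changes of -0.92 and -0.93. PORCN, which acylates Wnt proteins, and WNT11 had -0.54 and -0.59.

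Among 7 of 20 extracellular regulators tested, 4 lay below and 1 above, beside the same shares of all genes, with a median of -0.61. KREMEN2, a receptor for the DKK antagonists, had 32.3 and 25.5 CPM in OE, against 67.9 and 51.6 CPM in NC, and a change of -1.05. Its relative KREMEN1 had -0.36 and the deacylase NOTUM had -0.73, while DKK3, above in both OE libraries, was scarce, at 1.33 and 0.859 CPM in OE, against 0.206 and 0.234 CPM in NC.

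Of 6 of 8 junction partners tested, 4 lay below and 0 above, beside 20.4% and 19.9% of all genes, with a median of -0.68. E-cadherin (CDH1), which binds beta-catenin at junctions, had 467 and 558 CPM in OE, against 936 and 938 CPM in NC, a change of -0.87. With TMM scaling CTNNB1, which belongs to the same junctions, lay on the same side, but with cyclic loess CDH1 in OE replicate 1 was 0.08 above the NC mean, while CTNNB1 was at -0.50. Vinculin (VCL) had 62.6 and 117 CPM in OE, against 247 and 275 CPM in NC, and a change of -1.54 (SE 0.46). The catenin CTNND1 and plakoglobin (JUP) had -0.66 and -0.69. With cyclic loess 2 of the 6 lay below, beside 20.3% of all genes, and the median of the 6 in OE replicate 1 was 0.11. With library totals 3 lay below, beside 11.8%. The medians of these 3 lists were negative with library totals too, at -0.24, -0.34 and -0.39 for ligands, extracellular regulators and junction partners, and with cyclic loess, at -0.69, -0.74 and -0.36.

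Cytoplasmic transducers and partners of the destruction complex had medians of 0.46 and 0.22. Of 9 transducers tested, 3 lay above and 2 below, and of 23 destruction complex partners 7 lay above and 1 below, beside 19.9% above and 20.4% below over all genes. The Dishevelled protein DVL2, which relays the receptor signal, had 48.4 and 47.2 CPM in OE, against 34.3 and 30.8 CPM in NC. Both OE libraries were above, with a change of 0.55 (SE 0.29), while DVL3 and the Dishevelled antagonist NKD2 had 1.16 and 1.35, led by OE replicate 1. VANGL2, a planar polarity protein with few counts, had 0.286 and 0.181 CPM in OE, against 1.18 and 1.06 CPM in NC. OE replicate 2 alone lay above both NC libraries for 3 of the 9 and below for 6, beside 42.8% and 42.5% of all genes. The transducer median was 0.67 in the first OE library and -0.24 in the second, and that of the destruction complex partners 0.03 and 0.17.

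GSK3A, a kinase that marks beta-catenin for destruction, had 35.0 and 36.2 CPM in OE, against 19.1 and 17.0 CPM in NC. The groups were well separated, with a change of 0.98 (SE 0.28; edgeR quasi-likelihood adjusted p = 0.734). FBXW11, the F-box protein that recognises the phosphorylated form, had 30.8 and 35.0 CPM in OE, against 24.0 and 20.9 CPM in NC, a change of 0.55. CSNK1G2 and PPP2R5A, a kinase and a phosphatase subunit, had 1.46 and 0.75, led by OE replicate 1. These genes were named for the smallest p of their list, and 15 of the 23 overlapped between the groups. Among those were GSK3B (53.8 and 74.3 CPM in OE, 49.3 and 56.9 CPM in NC) and BTRC (21.7 and 25.5 CPM, 20.0 and 22.7 CPM). The kinase CSNK1A1 was the only gene below, with 176 and 250 CPM in OE, against 263 and 278 CPM in NC. OE replicate 2 lay above both NC libraries for 14 of the 23 and below for 6, beside 42.8% and 42.5% of all genes. With library totals 11 of the 23 lay above in both OE libraries and 0 below, beside 30.2% and 11.8%, and with cyclic loess 7 and 2, beside 18.1% and 20.3%.

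Nuclear partners, target genes and the MYC network had medians of 0.29, 0.22 and 0.62, which with cyclic loess were 0.25, 0.01 and 0.39. In OE replicate 1 their medians were 0.35, 0.41 and 1.16 from the NC mean, and in OE replicate 2 they were -0.15, -0.20 and 0.05. Of 23 nuclear partners tested, 6 lay above and 2 below, and of 14 in the MYC network 5 lay above and 1 below, beside 19.9% and 20.4% of all genes. The co-repressor TLE1 had 17.7 and 12.1 CPM in OE, against 8.96 and 7.95 CPM in NC, a change of 0.81. TLE2 was high in OE replicate 1 alone, MED12 lay below with -0.55 and TCF7L1 above with 0.99. From the NC mean, TCF7L1 was at 1.43 in OE replicate 1 and 0.35 in OE replicate 2. In the MYC network, MLXIP, ZBTB17, PIM1 and USP28 had 1.24, 0.87, 0.94 and 0.52. In OE replicate 1 they were at 1.83, 1.28, 1.47 and 0.67 from the NC mean. In OE replicate 2 they were at 0.22, 0.28, 0.12 and 0.34, so OE replicate 1 led these changes.

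Target genes of the pathway lay on either side. Of 25 tested, 3 lay above both NC libraries in both OE libraries and 7 below, beside 19.9% and 20.4% of all genes, and 15 overlapped. Some targets are counted in another list as well. LGR5 and ZNRF3 are also in the receptor list, and NOTUM and APCDD1 in that of extracellular regulators. NKD1 is also among the transducers, and TCF7 and LEF1 are among the nuclear partners. The stem cell receptor LGR5, below in both, had 6.47 and 8.86 CPM in OE, against 12.7 and 13.1 CPM in NC, a change of -0.75 (SE 0.36). PLAUR, the urokinase receptor, had 69.3 and 68.8 CPM in OE, against 115 and 113 CPM in NC, a change of -0.73 (SE 0.30). BIRC5 (survivin) lay above, at 105 and 191 CPM in OE, against 94.5 and 66.1 CPM in NC, and FOSL1 had a change of 0.51. The members AXIN2 and RNF43 were on the side of BIRC5 and FOSL1, and opposite to LGR5 and PLAUR. Those 4 targets were named for the smallest p of their list in these data, so the contrast reflects that choice. ZNRF3, a ubiquitin ligase as RNF43 is, and NOTUM were also among the targets below.

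**Figure D4:**
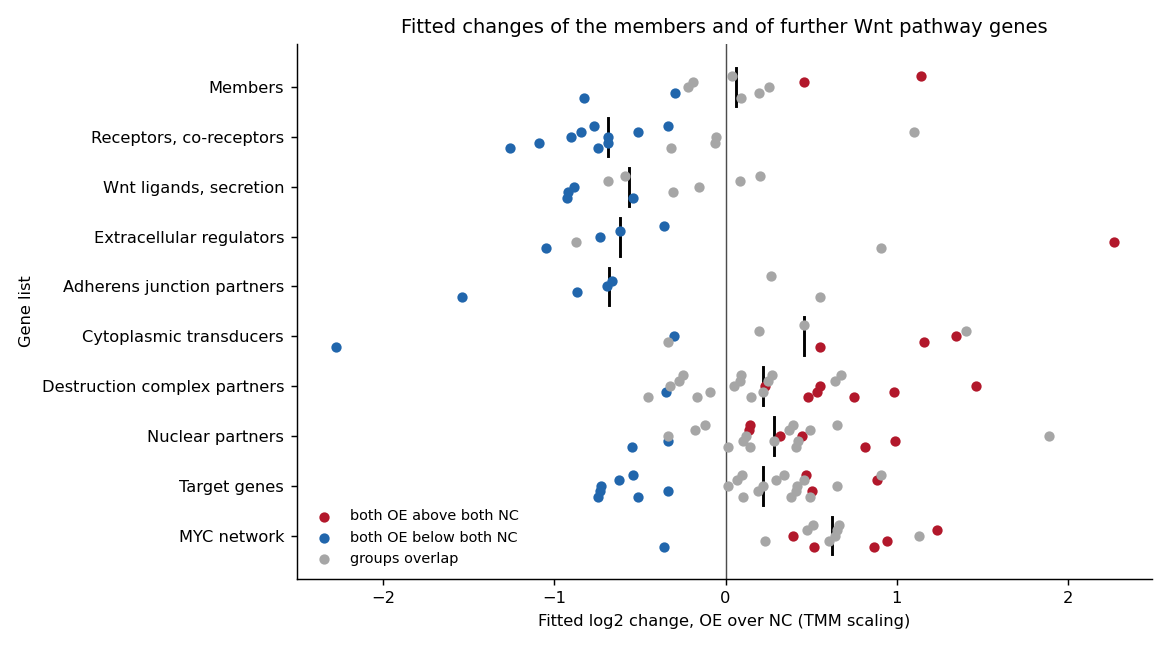
Fitted log2 change of OE over NC (edgeR, TMM scaling) for the 10 members and for the tested genes of 9 further lists. Each list has 1 point per gene and a black bar at its median, and some genes are in more than 1 list. Red marks genes with both OE libraries above both NC libraries, blue both below and grey overlap. In the list of receptors and co-receptors 10 of 14 genes are blue, and no gene passed the test. The median over all genes is 0.09 with this scaling and 0.40 with library totals.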

How the data were processed

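Samples were grouped and numbered by their titles (2 OE and 2 NC libraries of ribosome footprints). Each of the authors' tables holds 1 column of estimated counts per gene and library, per the file headers, with a fraction in 13.8% to 14.7% of values, which were rounded for count tests. Per the submitters' processing notes, the tools were RSEM, StringTie, HISAT2, Bowtie2 and fastp, with hg18 as the build. Settings, annotation and use of strand were not given in the sources used here, so overlapping or antisense genes cannot be told apart.

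In R 4.3.3, edgeR 4.0.16 kept 12560 genes by filterByExpr (minimum count 10, total 15, proportion 0.7), scaled them by TMM and tested group alone by quasi-likelihood with Benjamini-Hochberg adjustment. Alternatives were DESeq2 1.42.0, the likelihood ratio test, RLE and total scaling, cyclic loess and quality weights in limma 3.58.1 (prior count 2), other filters, a replicate block, summed rows of 1 symbol and each library left out. Of each further list, up to 4 genes with the smallest p were named with their values. For likeness of profiles the 2 nearest genes were named, except 1 that is not reported here. The members and lists were chosen with earlier results of these data known. Replicate pairs differed by a chi-square per degree of freedom of 332 in OE and 13.1 in NC, more than sampling noise. Run on simulated counts, the same procedure called 32 of 100 genes changed 4-fold and 100 of 100 changed 16-fold. It also called 7 unchanged genes. The simulated counts had 1 common dispersion (0.179) for all genes and libraries, and only genes above 10 CPM were changed. The larger spread between the OE replicates was not simulated, so these shares may not hold in the data. METTL14, with a fitted ratio of 5.85, was not called (edgeR quasi-likelihood adjusted p = 0.734). Changes below 4-fold were not simulated, and the highest fitted ratio of a member was 2.21 (RNF43). Calling 0 members therefore does not show that none changed.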

Additional observations from a re-analysis of the deposited data

How the results depend on the processing

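Counts of genes past the threshold, 0 in edgeR's quasi-likelihood test, were 25 by the DESeq2 Wald test, 29 by edgeR's likelihood ratio test and 24 with the replicate block. No member and no further pathway gene was called by these or by any other fit over all 4 libraries, while METTL14 was called by DESeq2 (adjusted p = 0.0495). Leaving out each library in turn gave 7 to 7969 genes: 11 and 7 without NC replicates 1 and 2, 4329 without OE replicate 1 and 7969 without OE replicate 2. Members called were 0 to 6 and further pathway genes 0 to 69 in these fits: without OE replicate 1 they were 6 and 40, beside 34.1% of all genes, without OE replicate 2 they were 5 and 69, beside 60.9%, and without either NC library 0 and 0. The fits without an OE library rest on the spread of the NC libraries. The median log2 change of the members ran from -0.35 to 0.24 with libraries left out, and was 0.36 with library totals and 0.00 with cyclic loess, against 0.40 and 0.00 over all genes. Without OE replicate 2, 6 members lay above both NC libraries and 3 below, beside 46.7% and 45.5% of all genes. Without OE replicate 1, 3 lay above and 7 below, beside 42.8% and 42.5%. With library totals, 2 lay above and 1 below in both OE libraries, beside 30.2% and 11.8%. With cyclic loess 2 lay above and 1 below as well, beside 18.1% and 20.3%. These settings were chosen after seeing the data.

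Directions turned for several values that were not called. With library totals LRP5, LRP6, TCF7L2 and KREMEN1 were 0.15, 0.22, 0.030 and 0.0092, all below the median of 0.40 over all genes. With cyclic loess AXIN1, LRP5 and ASCL2 were -0.065, 0.090 and -0.25. ASCL2 was -0.0051 with quality weights and -0.12 with the replicate block, and -0.98 to 0.59 with libraries left out. Over the libraries left out APC ran from -0.76 to 0.81, AXIN1 from -0.50 to 0.47, MYC from -0.33 to 0.54, LRP6 from -0.63 to 0.11 and TLE2 from -0.24 to 2.69. The log2 ratio of AXIN2 over AXIN1 ran from -0.10 to 1.01, LRP6 over LRP5 from -0.26 to 0.22 and APC over CTNNB1 from -0.32 to 2.25. Apart from the OE library kept, for which the values of each library are given for the members, the cause was not tested.

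Replicate numbers are shared by the groups, and the deviations of same-numbered libraries correlated with r = -0.097 over 12560 genes. With a single replicate difference per group, and OE replicate 1 apart, this value cannot show whether same-numbered libraries belong together. With the replicate block CTNNB1 was -0.90, RNF43 0.99 and AXIN2 0.46. With 2 libraries per group, the common biological coefficient of variation was 0.423. Of the members, ASCL2 had the fewest counts, 8 to 49 per library.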
